A study of Mus musculus with 18 samples.

Results

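A group of 9 receptor genes of myeloid cells was followed across 3 mouse adipose preparations: the activating Fcγ receptors Fcgr1, Fcgr3 and Fcgr4, their shared signalling chain Fcer1g, the inhibitory Fcγ receptor Fcgr2b, the inhibitory receptors Lair1, Sirpa and Lilrb4, and the lectin receptor Clec7a. These are 9 of 52093 symbols in the expression files, and each has 1 row. The genes were picked by name after their tissue differences were known, so their levels and fold changes between tissues are given as a description, without a test. All 9 were highest in adipocytes of epididymal white adipose tissue (eWAT) and intermediate in adipocytes of inguinal white adipose tissue (iWAT). They were lowest in brown adipose tissue (BAT), and in none of them did the 6 values of one tissue overlap those of another. Of all genes tested, 22.8% had every eWAT mouse above every iWAT mouse. This share was 49.2% for eWAT over BAT and 51.8% for iWAT over BAT, so such separation was common.

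Fcγ receptors bind the constant part of IgG. Fcgr1, Fcgr3 and Fcgr4 signal through Fcer1g, the FcRγ chain, whose ITAM (immunoreceptor tyrosine-based activation motif) recruits the kinase Syk and leads to phagocytosis and cytokine release. Fcgr2b, Lair1, Sirpa and Lilrb4 carry ITIMs (immunoreceptor tyrosine-based inhibitory motifs), which recruit the phosphatases SHP-1, SHP-2 or SHIP and restrain such signals: Fcgr2b responds to immune complexes, Lair1 to collagens and Sirpa to CD47, the so-called "do not eat me" signal. Clec7a (Dectin-1) binds fungal β-glucan and signals to Syk and Card9 through a single tyrosine motif of its own. In adipose tissue, these receptors are best known from macrophages, which accumulate in obesity, above all in visceral fat.

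The 18 RNA-seq libraries came from wild-type male C57BL/6 mice aged 16 weeks that had received a diet high in fat (HFD) for 12 weeks, with 6 mice for each tissue. The iWAT and eWAT samples are mature adipocytes that floated after collagenase digestion, whereas BAT is whole tissue, although 1 label names its cell type as BAT adipocytes. One label field gives regular chow for all samples, against their titles and the study's design, and mice on regular chow were not analysed here. Both white depots were numbered as mice 1, 2, 3, 4, 5 and 16, and BAT as mice 1, 2, 5, 16, 17 and 18. Lanes 1 and 2 held white depots and lanes 3 and 4 held BAT, so lane, preparation and tissue cannot be told apart in comparisons with BAT.

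Reads counted on the rows numbered between 24655056 and 42518483 per sample. Macrophage markers (Cd68, Adgre1, listed as Emr1, Csf1r, Lyz2, Cd14 and Itgam) were detected in all 3 tissues, also in the floated adipocytes: their summed level was 452 to 891 RPKM (reads scaled by the length of the row and the total reads of the sample) in iWAT, 2560 to 4130 in eWAT and 24.5 to 48.4 in BAT. In BAT this sum was mostly Lyz2 (mean 32.3 RPKM), with Cd68 at 3.11, Csf1r at 2.1, Cd14 at 1.0, Adgre1 at 0.635 and Itgam at 0.376. The summed markers of other white cells were low in every sample. In BAT, however, Zbtb46 of the dendritic cell list (mean 1.95) and Kit of the mast cell list (1.56) lay among these single macrophage markers. The 3 monocyte markers summed to 1.76 to 3.85 RPKM in iWAT, 3.72 to 6.97 in eWAT and 0.572 to 1.44 in BAT. The 6 neutrophil markers summed to at most 8.67 RPKM, with Ly6g, Mpo and Camp at 3 reads or fewer throughout, the 5 mast cell markers to at most 5.26, the 4 dendritic cell markers to at most 4.27, the 4 B cell markers to at most 2.17, the 4 T cell markers to at most 1.09 and the 3 NK cell markers to at most 0.452. The 4 adipocyte markers summed to 10500 to 14600 RPKM in iWAT, 2330 to 7170 in eWAT and 5140 to 6360 in BAT, and the 3 brown adipocyte markers to 1970 to 2620 in BAT, against at most 11.5 in iWAT. The 3 markers of adipocyte progenitors summed to 416 to 605 RPKM in iWAT, 59 to 184 in eWAT and 22.2 to 34.8 in BAT. This sum was mostly Dpt, with means of 476, 85.9 and 16.3 RPKM in iWAT, eWAT and BAT. Pdgfra (0.771, 1.06 and 0.929) and Dcn (12.5, 14.8 and 10.3) did not follow it, so the sum is not a measure of progenitor content. In eWAT, mice 1 and 3 stood apart, with a mean log2 macrophage marker level of 7.98 and 8.06, against 7.43 to 7.61 in the other 4 mice. In bulk RNA, fewer cells of a type and less RNA per cell cannot be told apart, and which cells carried the receptor transcripts was not tested.

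A cluster of 4 of the genes lies on mouse chromosome 1 (mm9), in the order Fcgr2b, Fcgr4, Fcgr3 and Fcer1g, within 273808 bases from position 172890689 to 173164496. The other 5 lie on chromosomes 2 (Sirpa), 3 (Fcgr1), 6 (Clec7a), 7 (Lair1) and 10 (Lilrb4). RefSeq promoter windows (GRCm38.p6, 250 bases before to 50 after the start) were given for 7 of the 9 genes, not for Sirpa and Lilrb4. They were searched on both strands for GAGGAA, the core bound by the myeloid transcription factor PU.1 and other ETS factors. It was found in 5 of 7 genes and in 28.3% of all 32851 windows. The first is a count of genes, of which Fcgr3 and Clec7a had 2 windows each, and the second a share of windows. They are not like measures, and no enrichment is read from them. The matches are shown as a description of the sequences, and the genes were chosen with their tissue differences known. Each is given 5′ to 3′ on the strand of the gene, as 30 bases with the match in capitals (TTCCTC is GAGGAA read on the other strand).
Lair1, chr7:4063213-4063242, minus strand: aagagaaacctcTTCCTCtccatgtgggga
Fcgr1, chr3:96294007-96294036, minus strand: atggcaacttccTTCCTCttttctaatctt
Fcgr3, chr1:171059392-171059421, minus strand: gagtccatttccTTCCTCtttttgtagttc
Fcgr4, chr1:171018892-171018921, plus strand: aaggctatttacTTCCTCtcttctagtcaa
Clec7a, chr6:129472858-129472887, minus strand: aaacaggatctaGAGGAAaaaagggaaatt
The motif was not found in the windows of Fcgr2b and Fcer1g. A match is a description of the letters and not a binding site, and whether PU.1 acts on these genes was not tested. Sfpi1, the gene of PU.1, was itself listed at 17.1 ± 3.9 RPKM in iWAT, 69.1 ± 10.9 in eWAT and 0.735 ± 0.239 in BAT (SD, n = 6).

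Among the activating receptors, Fcgr3 (CD16), the low-affinity receptor for immune complexes, was the most abundant. Its level was 17.7 to 32.4 RPKM in iWAT (median 22.5), 86.7 to 127.7 in eWAT (median 96.2) and 1.55 to 2.01 in BAT (median 1.80). In eWAT, mice 1 and 3 were near 127 RPKM and the other 4 mice below 100 RPKM, and in iWAT mouse 3 was highest and mouse 2 lowest. Fcgr1 (CD64), the high-affinity IgG receptor, ranged from 1.67 to 3.82 RPKM in iWAT (median 3.06), from 7.80 to 13.0 in eWAT (median 10.7) and from 0.117 to 0.362 in BAT (median 0.269). Its lowest eWAT value was 2.04 times its highest iWAT value. Fcgr4 (CD16-2), which binds IgG2a and IgG2b, ranged from 1.90 to 3.8 RPKM in iWAT (median 3.34), from 12.1 to 17.6 in eWAT (median 13.2) and from 0.326 to 0.701 in BAT (median 0.403). In BAT, Fcgr1 rested on 7 to 33 reads and Fcgr4 on 10 to 30 reads per mouse, so their spread there includes counting error.

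Fcer1g, the chain that these receptors need to reach the cell surface and to signal, had the highest level of the 9 genes in both white depots. It ranged from 32.7 to 54.2 RPKM in iWAT (median 41.3), from 157.9 to 228.3 in eWAT (median 171.4) and from 2.61 to 3.59 in BAT (median 2.99). Its level was 1.42 ± 0.107 times the summed level of Fcgr1, Fcgr3 and Fcgr4 in iWAT, 1.45 ± 0.0539 times in eWAT and 1.22 ± 0.180 times in BAT (SD, n = 6), and the ranges of these ratios overlapped.

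**Figure D1:**
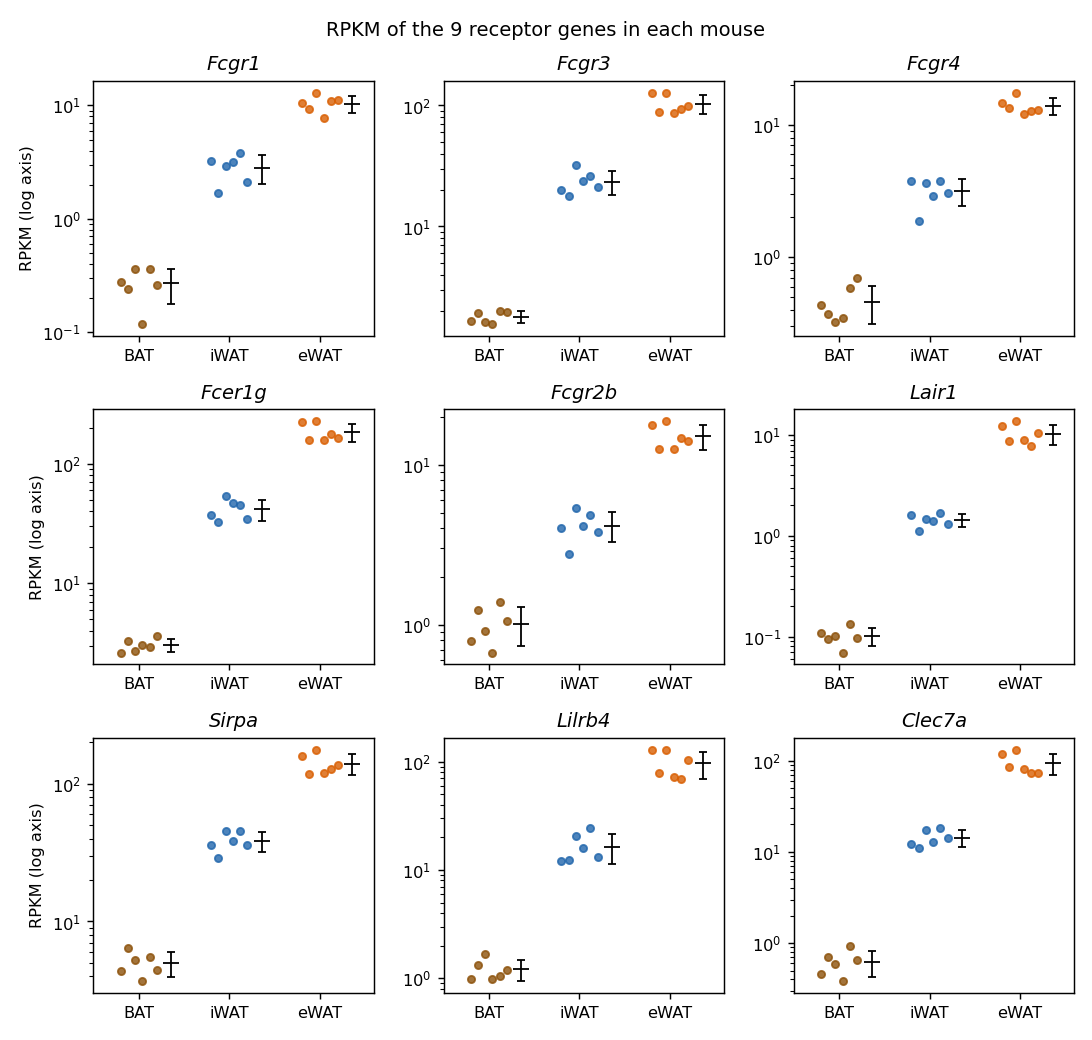
RPKM (log axis) of each receptor gene in the 6 mice of BAT, iWAT adipocytes and eWAT adipocytes. Each coloured point is 1 mouse, in order of mouse number, and the black bar is the mean ± SD. In all 9 panels the 3 tissues do not overlap, with BAT lowest and eWAT highest, for example 1.55 to 2.01, 17.7 to 32.4 and 86.7 to 127.7 RPKM for Fcgr3. Of all genes tested, 22.8% had every eWAT mouse above every iWAT mouse. This share was 49.2% for eWAT over BAT and 51.8% for iWAT over BAT.

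In the fit over all genes (edgeR, TMM-scaled), Fcgr3, Fcgr4 and Fcer1g differed between the white depots by almost the same amount, with a log2 fold change of eWAT over iWAT of 2.13 ± 0.149, 2.13 ± 0.139 and 2.14 ± 0.139 (SE). For Fcgr1 it was 1.88 ± 0.168. Over BAT they spread further: eWAT was higher by 5.27 ± 0.133 for Fcgr3, 5.34 ± 0.144 for Fcer1g, 4.68 ± 0.178 for Fcgr1 and 4.31 ± 0.165 for Fcgr4. The same order held for iWAT over BAT, with 3.11 ± 0.138 for Fcgr3, 3.18 ± 0.141 for Fcer1g, 2.77 ± 0.219 for Fcgr1 and 2.15 ± 0.206 for Fcgr4. The comparisons share samples, so the repeated order is not a second observation. As background for any such count, 68.6% of 19623 genes tested differed between eWAT and iWAT adipocytes at an adjusted p of 0.05, 82.5% of 20076 between eWAT adipocytes and BAT, and 75.3% of 19745 between iWAT adipocytes and BAT. The share of all genes with every mouse of the first tissue above every mouse of the second was 22.8% for eWAT over iWAT, 49.2% for eWAT over BAT and 51.8% for iWAT over BAT. The 9 receptor genes were chosen from these contrasts, so nothing is read from their 9 of 9.

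Fcgr2b (CD32b), the only inhibitory receptor of the Fcγ family, differed least from BAT. Its level was 2.78 to 5.33 RPKM in iWAT (median 4.09), 12.5 to 18.7 in eWAT (median 14.4) and 0.668 to 1.39 in BAT (median 0.987). The tissues did not overlap, and mouse 3 was highest in both white depots. Its log2 fold change was 1.85 ± 0.142 for eWAT over iWAT, 3.31 ± 0.152 for eWAT over BAT and 1.43 ± 0.158 for iWAT over BAT (SE).

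The make-up of the Fcγ receptor family was different in BAT. Of the summed RPKM of the 4 receptors, Fcgr3 held 69.9% ± 3.47 in iWAT, 72.4% ± 1.33 in eWAT and 51.2% ± 3.85 in BAT, and Fcgr2b held 12.3% ± 0.538, 10.5% ± 0.379 and 28.3% ± 3.44 (SD, n = 6). Fcgr2b took 24.9% to 32.9% in the BAT mice and at most 13.1% in any white depot sample, so the ranges did not overlap. The white depots did not overlap either, with 11.5% to 13.1% in iWAT and 10.0% to 11.2% in eWAT. Fcgr4 held 9.44% ± 1.59, 9.78% ± 0.773 and 12.9% ± 2.85, and Fcgr1 held 8.37% ± 1.72, 7.29% ± 0.831 and 7.57% ± 2.37. For these 2 genes the iWAT and BAT ranges overlapped. The summed level of the activating receptors was 7.12 ± 0.356 times that of Fcgr2b in iWAT, 8.53 ± 0.337 times in eWAT and 2.58 ± 0.422 times in BAT.

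These shares depend on how a level is counted. By reads in place of RPKM, which gives longer transcripts more weight, Fcgr2b held 23.4%, 20.4% and 46.4% and Fcgr3 60.0%, 63.8% and 38.2%, in the same order of tissues. Transcripts of Fcgr2b and Fcgr3 share 509 bases at 96.5% identity, 31.8% of Fcgr2b and 37.8% of Fcgr3, so the division of reads between this pair is uncertain.

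**Figure D2:**
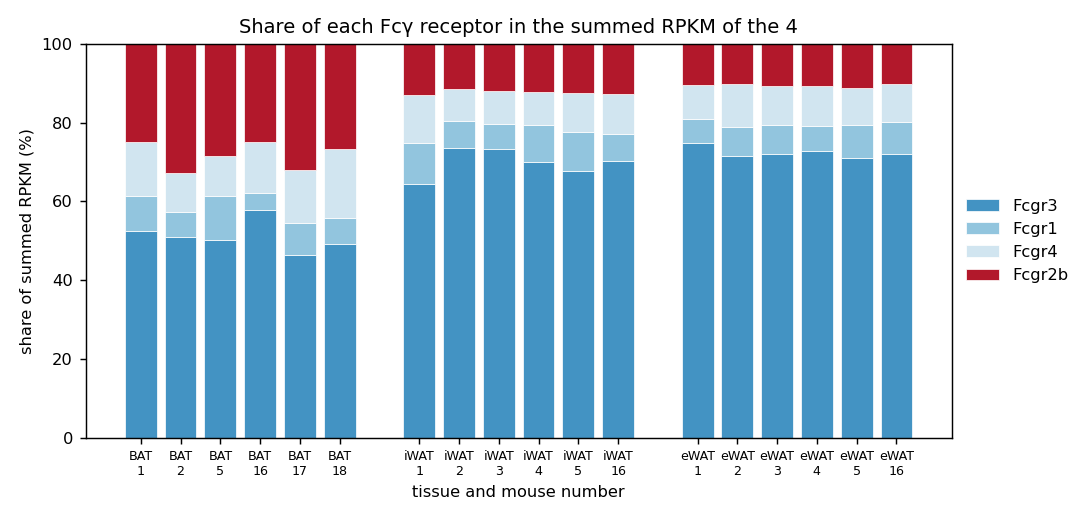
Share (%) of Fcgr3, Fcgr1, Fcgr4 and Fcgr2b in the summed RPKM of the 4 Fcγ receptors, with 1 bar for each mouse. The top segment is the inhibitory Fcgr2b, which takes 24.9% to 32.9% in BAT, 11.5% to 13.1% in iWAT and 10.0% to 11.2% in eWAT.

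Of the other ITIM receptors, Lair1, the collagen receptor, had the lowest mean level and the largest fold between the white depots, with Clec7a within error of it. It ranged from 1.12 to 1.67 RPKM in iWAT (median 1.44), from 7.70 to 13.7 in eWAT (median 9.66) and from 0.0692 to 0.134 in BAT (median 0.0999). Its lowest eWAT value was 4.62 times its highest iWAT value. The log2 fold change was 2.83 ± 0.137 for eWAT over iWAT, 6.07 ± 0.175 for eWAT over BAT and 3.20 ± 0.125 for iWAT over BAT (SE). In BAT, Lair1 rested on 12 to 36 reads per mouse.

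Sirpa, the CD47 receptor, was expressed at the second highest level in both white depots and at the highest in BAT. It ranged from 29.1 to 45.4 RPKM in iWAT (median 37.2), from 118.1 to 177.2 in eWAT (median 132.1) and from 3.68 to 6.47 in BAT (median 4.85). All BAT values of Sirpa lay above all BAT values of Fcer1g, the order opposite to that of the means in the white depots, where the ranges of the pair overlapped. The log2 fold change of Sirpa was 1.86 ± 0.126 for eWAT over iWAT, 4.24 ± 0.146 for eWAT over BAT and 2.35 ± 0.121 for iWAT over BAT. The rows 2900076A13Rik and AK080685 overlap Sirpa, with at most 1.27% of its reads.

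Lilrb4 (gp49B), an inhibitory receptor of macrophages and mast cells, ranged from 12.2 to 24.3 RPKM in iWAT (median 14.5), from 68.9 to 129.2 in eWAT (median 91.4) and from 0.976 to 1.68 in BAT (median 1.13). Mice 1, 3 and 16 were above 100 RPKM in eWAT, and mice 3 and 5 above 20 RPKM in iWAT. The log2 fold change was 2.56 ± 0.216, 5.74 ± 0.224 and 3.15 ± 0.193 for the comparisons in the same order. Over its whole transcript, Lilrb4 is 96.5% identical to its neighbour Gp49a, which has no ITIM, so reads of the pair could be split or exchanged. Gp49a was listed at 32.5 ± 11.0 RPKM in iWAT, 183.3 ± 45.2 in eWAT and 1.74 ± 0.280 in BAT (SD, n = 6).

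Clec7a, the β-glucan receptor, had the largest difference from BAT of the 9 genes. It ranged from 10.9 to 18.4 RPKM in iWAT (median 13.5), from 73.2 to 132.4 in eWAT (median 83.2) and from 0.381 to 0.924 in BAT (median 0.622). Mice 1 and 3 were above 115 RPKM in eWAT and the other 4 mice below 85. Its log2 fold change was 2.71 ± 0.174 for eWAT over iWAT, 6.65 ± 0.221 for eWAT over BAT and 3.91 ± 0.170 for iWAT over BAT (SE).

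By mean RPKM, the order in both white depots was Fcer1g, Sirpa, Fcgr3, Lilrb4, Clec7a, Fcgr2b, Fcgr4, Fcgr1 and Lair1. In eWAT the only neighbours in this order whose ranges did not overlap were Clec7a and Fcgr2b, and in iWAT they were Clec7a and Fcgr2b, and Fcgr1 and Lair1. In BAT the order began with Sirpa, Fcer1g and Fcgr3, none of which overlapped its next neighbour except Fcgr3 with Lilrb4, and Fcgr2b stood above Clec7a. The rows of Lair1 and Lilrb4 are longer than the GENCODE vM1 exons of these genes (7562 against 3776 bases and 4284 against 1491 bases). On the GENCODE length, Lilrb4 came first in both white depots, at 47.2 RPKM in iWAT and 278.0 in eWAT, and Lair1 rose to 2.87 and 20.6. Fold changes between tissues do not depend on row length.

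The receptor genes were next set beside the macrophage markers. For eWAT over iWAT, the log2 fold change was 1.85 to 2.83 over the 9 genes (median 2.13), and 1.95 (Csf1r) to 2.45 (Itgam) over the 6 markers, of which all 6 passed the test (edgeR quasi-likelihood test, adjusted p at most 7e-07). Lair1, Clec7a and Lilrb4 were above all 6 markers, while Fcgr2b, Sirpa and Fcgr1 lay below them by less than 1 SE of Csf1r (0.149). For eWAT over BAT, the markers spread from 4.72 (Csf1r) to 6.93 (Cd68), and the receptor genes from 3.31 (Fcgr2b) to 6.65 (Clec7a, median of the 9 genes 5.27). For iWAT over BAT the receptor genes spanned 1.43 to 3.91 (median 3.11), and the markers 2.73 (Csf1r) to 4.88 (Cd68). The median over all genes tested was −0.00 for eWAT over iWAT, −0.02 for eWAT over BAT and 0.01 for iWAT over BAT. Without mice 1 and 3 of eWAT, the median of the receptor genes was 1.99 over iWAT and 5.11 over BAT. Within lane 1 it was 1.91 for eWAT over iWAT and within lane 2 it was 2.25.

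**Figure D3:**
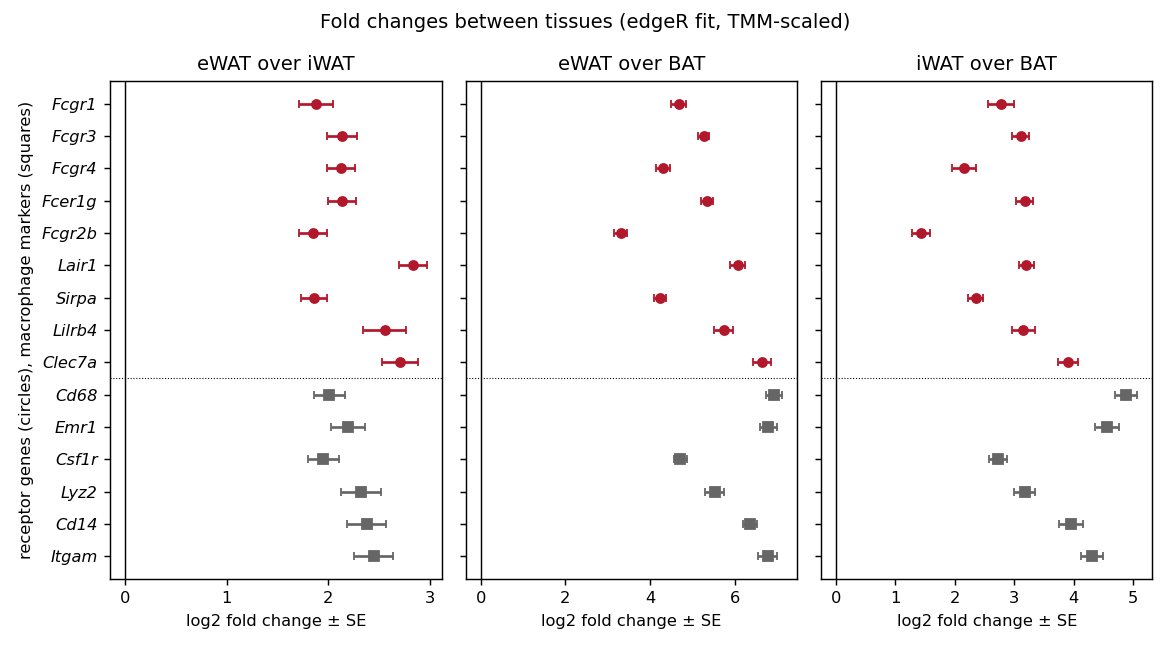
Log2 fold change ± SE between tissues for the 9 receptor genes (circles) and 6 macrophage markers (squares, Emr1 being Adgre1), from the edgeR fit of each comparison on 12 samples. For eWAT over iWAT the receptor genes span 1.85 to 2.83 and the markers 1.95 to 2.45. For both comparisons with BAT, Fcgr2b is the lowest.

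As a share of the Cd68 level in the same sample, the values of 7 of the 9 genes overlapped between the white depots. Fcer1g was at 30.1% ± 1.98 of Cd68 in iWAT and 32.6% ± 1.47 in eWAT, Fcgr3 at 16.9% ± 0.952 and 18.3% ± 0.844, and Sirpa at 27.9% ± 2.80 and 24.7% ± 1.15 (SD, n = 6), and the ranges of each overlapped. Ranges overlapped also for Fcgr2b (2.99% and 2.65%), Fcgr4 (2.30% and 2.47%) and Fcgr1 (2.03% and 1.84%). The largest differences were those of 3 genes with higher shares in eWAT: Lair1 was at 1.06% ± 0.212 in iWAT and 1.80% ± 0.204 in eWAT, Clec7a at 10.4% ± 1.29 and 16.4% ± 2.51, and Lilrb4 at 11.7% ± 1.65 and 16.9% ± 2.64. Lair1 and Clec7a did not overlap between depots, with 0.788% to 1.41% against 1.43% to 2.01% for Lair1 and 8.29% to 11.7% against 13.4% to 19.4% for Clec7a. Relative to the mean log2 level of all 6 markers, Clec7a stayed higher in eWAT by a narrow gap (−1.89 to −1.42 in iWAT and −1.41 to −1.01 in eWAT), Lair1 overlapped, and Fcgr2b (−3.50 to −3.20 and −3.83 to −3.67) and Sirpa (−0.42 to −0.07 and −0.66 to −0.51) were lower in eWAT without overlap.

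In BAT, the mean share of Cd68 was higher than in both white depots for all 9 genes. Sirpa was at 165% ± 29.8 of Cd68, Fcer1g at 103% ± 26.1, Fcgr3 at 60.2% ± 12.3, Lilrb4 at 40.4% ± 9.87 and Fcgr2b at 32.8% ± 4.67. Fcgr2b thus stood 1 order of magnitude above its share in the white depots, whereas Clec7a, at 20.0% ± 3.48, overlapped the eWAT range. This comparison rests on Cd68, the marker with the largest difference from BAT. On the scale of all 6 markers, Clec7a was at −1.56 ± 0.179 in BAT, between −1.63 ± 0.185 in iWAT and −1.17 ± 0.173 in eWAT, and Fcgr2b was at −0.93 ± 0.142 in BAT, above −3.39 ± 0.121 and −3.78 ± 0.0591 (log2 units, SD, n = 6).

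**Figure D4:**
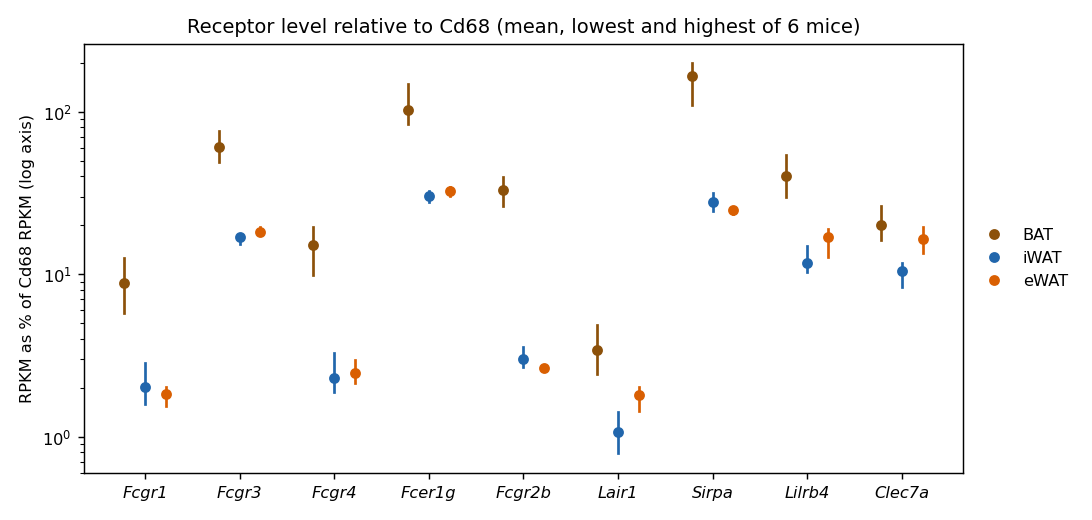
RPKM of each receptor gene as a percentage of the Cd68 RPKM of the same sample (log axis), for BAT, iWAT adipocytes and eWAT adipocytes. Points are means and lines run from the lowest to the highest of 6 mice. Sirpa and Fcer1g reach 165% and 103% of Cd68 in BAT, and the white depots lie close together except for Lair1, Clec7a and Lilrb4.

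Variation between mice of the same tissue was not used to choose the genes. The level of each gene was compared with the mean log2 level of the 6 macrophage markers across the 6 mice of a tissue (27 relations, exact permutation of 720 orders, two-sided, Benjamini-Hochberg adjusted). All points carry the depth and RNA quality of their own library. In iWAT, Pearson's r was 0.636 to 0.975 (median 0.900), and 6 genes passed: Fcgr3 (r = 0.975, exact p = 0.00417, adjusted p = 0.025), Sirpa (r = 0.963, exact p = 0.00556, adjusted p = 0.025), Fcer1g (r = 0.961, exact p = 0.0111, adjusted p = 0.0333), Fcgr2b (r = 0.947, exact p = 0.00278, adjusted p = 0.025), Lilrb4 (r = 0.900, exact p = 0.0236, adjusted p = 0.0398) and Clec7a (r = 0.866, exact p = 0.0292, adjusted p = 0.0464). Without the 2 mice farthest from the median, their r was 0.698 (Clec7a) to 0.980 (Fcgr3). Lair1 (r = 0.636, exact p = 0.161), Fcgr4 (r = 0.70, exact p = 0.0986) and Fcgr1 (r = 0.742, exact p = 0.104) did not pass. Spearman's rho of the 6 genes was 0.886 to 1.0 (exact p = 0.00278 for Fcgr3, the smallest that 720 orders can give, adjusted p = 0.0644). No rho passed after adjustment in any tissue. Among all 14178 genes compared in iWAT, 4.01% had an r of at least 0.900.

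In eWAT, mice 1 and 3 form a cluster apart from the other 4, so no r over the 6 mice is given, although these 9 relations were computed and count among the 27. These 2 mice held the 2 highest values of 8 of the 9 genes, Fcgr1 being the exception, for which mouse 3 was highest at 13.0 RPKM and mouse 1 had 10.5.

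In BAT, r was 0.377 (Fcer1g) to 0.919 (Fcgr2b), with a median of 0.681 that 29.4% of all 12492 genes reached. Fcgr2b (exact p = 0.00694, adjusted p = 0.0268), Clec7a (r = 0.886, exact p = 0.0167, adjusted p = 0.0398), Sirpa (r = 0.863, exact p = 0.0208, adjusted p = 0.0398) and Fcgr3 (r = 0.838, exact p = 0.0208, adjusted p = 0.0398) passed, with rho of 0.943, 0.943, 0.943 and 0.771 (adjusted p = 0.0644 for the first 3 and 0.154 for Fcgr3, exact permutation). Without the 2 mice farthest from the median, r fell to 0.406 for Clec7a and 0.593 for Sirpa, and was 0.725 for Fcgr2b and 0.722 for Fcgr3. With TMM-scaled RPKM or with Cd68 alone as the marker, none of the BAT relations passed, and r of Fcgr3 was 0.218 on TMM-scaled RPKM. In iWAT, Fcgr2b, Fcgr3, Fcer1g and Sirpa passed under both of these settings, and Clec7a and Lilrb4 under neither. No lane held 6 mice of a tissue, so there is no value within a lane.

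Pairs of receptor genes moved together across mice of 1 tissue to different degrees. As a description over 36 pairs and 6 mice, r had a median of 0.814 in iWAT (0.506 to 0.982) and 0.506 in BAT (−0.32 to 0.980). In BAT, Fcgr2b followed Clec7a (r = 0.980) and Fcgr3 (r = 0.924), whereas r was −0.32 between Fcer1g and Fcgr1 and 0.0189 between Lilrb4 and Fcgr3.

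Over all 18 samples, the level most like that of Fcer1g among 14156 genes with a mean of at least 1 RPKM was that of its partner Fcgr3 (r = 0.999), followed by Apbb1ip, an adaptor of integrin activation, Basp1, a membrane-bound signalling protein, the rows LOC100503932 and AK155532, and Qpct, glutaminyl cyclase. For these 5 genes r was 0.998 to 0.999. Sirpa and Clec7a came 164th and 137th (both r = 0.996), and Fcgr2b, the last of the receptor genes, 1154th (r = 0.982). Such values follow the tissue differences: Basp1, for example, was listed at 12.1 RPKM in iWAT, 65.0 in eWAT and 0.749 in BAT. After the tissue means were subtracted, the most similar gene was Lgals3 (r = 0.956), the galectin of macrophages, then Snx20, Nceh1, a cholesterol ester hydrolase of macrophages, Cd180, a Toll-like receptor homologue, and Vsig8 (r = 0.910), with Fcgr3 at r = 0.898. The other receptor genes then ranged from r = 0.404 (Fcgr1, 2668th) and 0.513 (Lair1, 1564th) to 0.716 (Fcgr2b, 370th). The eWAT mice described above as a cluster apart are included in these values. Subtracting the tissue mean does not remove their distance from the other eWAT mice. How far these r values and ranks rest on that cluster was not tested, so they are given as a description.

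The study's files also hold the genes around these receptors, and 9 lists of 116 such genes were compared in the same fits. These lists were chosen with earlier results of these data known. Their counts, and the adjusted p of the genes in them, are therefore a description, and no enrichment is read from them. The filter on mean count can also keep a gene through its reads in the higher tissue alone. Between the white depots, 92 were tested, of which 73 were higher in eWAT, against 34.5% of all genes tested, and 9 were higher in iWAT, against 34.1% (edgeR quasi-likelihood test, adjusted p of 0.05). Their median log2 fold change was 1.72. Over BAT, 79 of 91 were higher in eWAT (41.1% of all genes) and 9 in BAT (41.4%), with a median of 4.13, and 70 of 88 were higher in iWAT (38.1%) and 7 in BAT (37.2%), with a median of 2.47. All 6 macrophage markers were higher in eWAT than in iWAT and higher in both white depots than in BAT, and their part in these counts was not tested.

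The 20 proteins of activating signalling, from the adaptor Tyrobp to the kinases of the Src and Syk families, were all higher in eWAT than in iWAT (median log2 fold change 1.85). Tyrobp, the DAP12 adaptor, was at 54.6 to 105.2 RPKM in iWAT (median 79.9), 280.7 to 441.9 in eWAT (median 321.8) and 1.99 to 5.36 in BAT (median 3.45), without overlap. It rose in eWAT over iWAT by a log2 fold change of 2.12 ± 0.162 (adjusted p = 4e-07, edgeR). Lat2, an adaptor of myeloid and B cells, rose by 2.03 ± 0.164 (adjusted p = 5.2e-07, edgeR) and Pik3ap1, the PI3-kinase adaptor BCAP, by 1.84 ± 0.123 (adjusted p = 2.1e-07, edgeR). Over BAT, 20 of 20 were higher in eWAT (median 4.58) and 19 of 19 in iWAT (median 2.89), led by Lat2 (6.40 ± 0.177, adjusted p = 1.6e-13) and Pik3ap1 (4.42 ± 0.172, adjusted p = 5.4e-12). The 5 subunits of the phagocyte NADPH oxidase, which Fc receptors and Clec7a set off, were also all higher in eWAT than in iWAT (median 2.23) and higher in both white depots than in BAT (medians 5.55 and 3.30). Cybb, its catalytic subunit, was at 62.0 to 96.0 RPKM in eWAT, 9.75 to 19.2 in iWAT and 0.576 to 0.920 in BAT, and Cyba, its membrane partner, had a log2 fold change of 2.00 ± 0.158 for eWAT over iWAT. The cytosolic subunit Ncf1 had the largest, 2.61 ± 0.213 (adjusted p = 5.4e-07, edgeR).

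Of the 8 proteins listed under inhibitory signalling, 7 were higher in eWAT than in iWAT (median 1.78). Whether each of them, Ptprc included, restrains signals in these cells was not tested. Ptprc (CD45) rose most, by 2.23 ± 0.159 (adjusted p = 2.7e-07, edgeR), and Dok2, a docking protein, by 1.60 ± 0.178 (adjusted p = 5.7e-06), whereas Csk, the kinase that holds Src kinases inactive and is expressed widely, rose by 0.54 ± 0.0634 (adjusted p = 9.4e-06). Ptpn11 (SHP-2), which nearly all cells express, was the exception. It was at 27.04 to 32.8 RPKM in iWAT, 13.1 to 19.7 in eWAT and 16.5 to 27.6 in BAT, and it fell by 0.83 on the log2 scale in eWAT relative to iWAT (SE 0.119, adjusted p = 4.6e-05, edgeR). Over BAT, 7 of 8 were higher in eWAT (median 3.76) and 7 of 8 in iWAT (median 2.19).

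Of the genes listed as other ITIM receptors, 13 of 15 tested were higher in eWAT than in iWAT (median 1.73). The list was drawn up by name, and whether each protein, Cd200r1 and Vsig4 included, carries an ITIM was not checked. Pirb, listed as Lilrb3, a receptor for MHC class I, was at 9.24 to 17.7 RPKM in iWAT, 45.4 to 76.5 in eWAT and 0.419 to 0.914 in BAT, and rose by 2.16 ± 0.181 (adjusted p = 6.3e-07, edgeR). Cd200r1, the receptor of CD200, had the largest differences from BAT, 7.09 ± 0.226 in eWAT and 5.21 ± 0.245 in iWAT (adjusted p = 4.7e-13 and 3.6e-11, edgeR). It rested on 3 to 23 reads per BAT mouse. Vsig4, a complement receptor of resident macrophages, rose by 2.43 ± 0.306 (adjusted p = 1.7e-05) but stayed low, at 1.08 to 2.56 RPKM in eWAT. Pecam1, which is foremost an endothelial protein, went the other way. It fell by 1.63 on the log2 scale in eWAT relative to iWAT (SE 0.268, adjusted p = 0.00014, edgeR), from 34.5 ± 14.3 to 11.1 ± 3.61 RPKM, and the 3 endothelial markers Cdh5, Kdr and Tek, which summed to 80.1 to 224 RPKM in iWAT and 26.1 to 54.6 in eWAT, were lower in eWAT as well. Over BAT, 13 of 15 were higher in eWAT (median 4.37) and 9 of 13 in iWAT (median 2.61).

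Of 12 other receptors that couple to Fcer1g, Tyrobp or Syk, 11 were higher in eWAT than in iWAT (median 1.93), and Trem1 did not pass. Clec4d, a C-type lectin that pairs with Fcer1g, had the largest change of any listed gene. It was at 2.57 to 4.17 RPKM in iWAT (median 3.35), 13.0 to 71.2 in eWAT (median 43.1) and 0.0227 to 0.184 in BAT (median 0.101), and its log2 fold change was 3.69 ± 0.330 for eWAT over iWAT (adjusted p = 1e-06, edgeR) and 8.12 ± 0.482 for eWAT over BAT (adjusted p = 4.1e-10). In BAT, Clec4d rested on 1 to 8 reads per mouse, so the size of its fold change over BAT is uncertain. Its relative Clec4e (Mincle), which binds mycobacterial glycolipid, rose by 2.13 ± 0.338 (adjusted p = 0.00011), Trem2, a lipid receptor, by 2.29 ± 0.175 (adjusted p = 4e-07) and Cd300ld by 2.24 ± 0.157 (adjusted p = 2.5e-07). Clec4e had the largest difference of iWAT over BAT, 5.65 ± 0.480 (adjusted p = 3.2e-08, edgeR), on 0.00878 to 0.0341 RPKM in BAT. These levels were 1 to 6 reads per BAT mouse, so the size of this difference is uncertain as well. Over BAT, 10 of 11 were higher in eWAT (median 5.41) and 8 of 10 in iWAT (median 3.69).

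**Figure D5:**
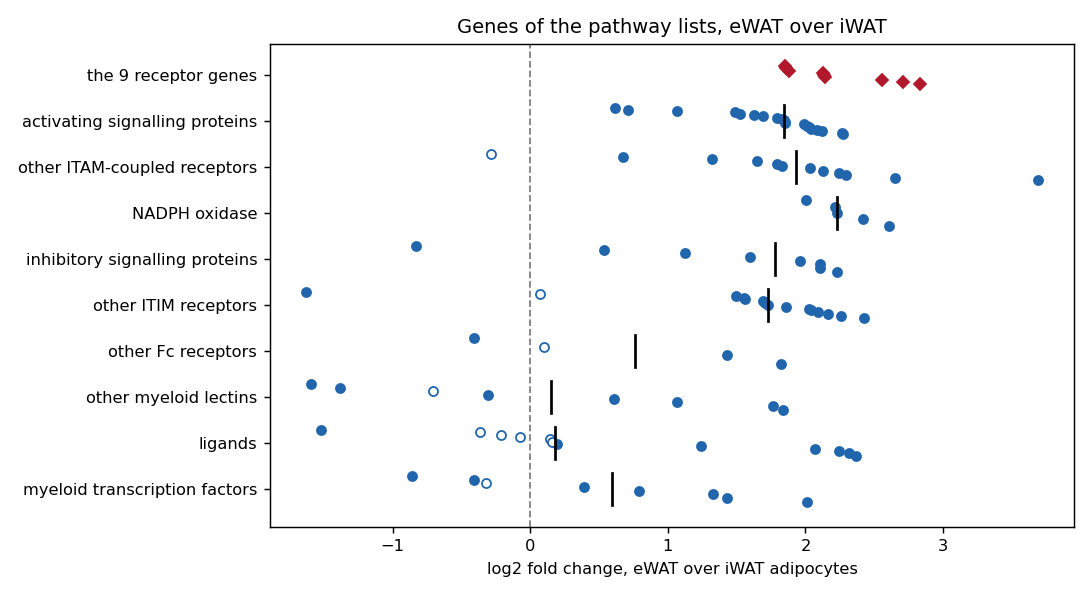
Log2 fold change of eWAT over iWAT adipocytes for the 9 receptor genes (diamonds) and for each gene of the 9 pathway lists (circles, filled where the adjusted p was under 0.05 in edgeR). Black ticks are list medians and the dashed line is the median of all 19623 genes tested. The activating and inhibitory signalling lists and the NADPH oxidase centre near the receptor genes, at 1.85, 1.78 and 2.23, whereas other myeloid lectins (0.152) and ligands (0.176) centre near 0.

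The remaining lists were mixed. Of 8 other myeloid lectins, 4 were higher in eWAT and 3 in iWAT (median 0.152). Lgals3 (galectin-3), a lectin of macrophages, was at 200.2 to 356.2 RPKM in iWAT, 755.8 to 1132 in eWAT and 3.01 to 4.78 in BAT, and rose by 1.77 ± 0.146 (adjusted p = 5.9e-07, edgeR). Mrc1, the mannose receptor, rose by 1.83 ± 0.156 (adjusted p = 7.2e-07), while Clec2d, a ligand of NK cell receptors, fell by 0.31 on the log2 scale (SE 0.0808, adjusted p = 0.0043), a call lost with all 18 samples in one fit (adjusted p = 0.11). Over BAT, 4 lectins were higher and 4 lower in eWAT, and 4 of 9 were higher and 1 lower in iWAT, and Clec2d, lower in both (−0.73 and −0.45), did not pass without TMM scaling, where its sign turned (0.17, adjusted p = 0.42, and 0.40, adjusted p = 0.073, edgeR). It did not pass with limma in either comparison (adjusted p of 0.32 to 0.75), nor for iWAT over BAT without the count filter (adjusted p = 0.072).

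Of 4 other Fc receptors tested, Fcrls and Fcrl1, Fc receptor-like genes, were higher in eWAT than in iWAT, by 1.43 ± 0.164 (adjusted p = 7.5e-06, edgeR) and 1.83 ± 0.315 (adjusted p = 0.00021). Fcrl1 was at most 0.840 RPKM in any mouse. Fcgrt, the neonatal Fc receptor, which recycles IgG and albumin in many cell types, was at 54.6 to 63.4 RPKM in iWAT, 39.2 to 50.4 in eWAT and 34.0 to 54.4 in BAT, and fell by 0.41 on the log2 scale in eWAT relative to iWAT (SE 0.0730, adjusted p = 0.00029). It was lower in both white depots than in BAT with TMM scaling. Without TMM scaling it was higher in iWAT (0.59, adjusted p = 0.00025, edgeR), and in eWAT its sign turned but did not pass (0.27, adjusted p = 0.064). For iWAT over BAT, the call of the fit with TMM was lost without the count filter (adjusted p = 0.17) and under the replicate block (adjusted p = 0.14). Fcer2a, the low-affinity IgE receptor, was lower in iWAT than in BAT by 0.98 on the log2 scale (SE 0.422, adjusted p = 0.047, edgeR), at no more than 0.191 RPKM, and this call was lost without TMM scaling (−0.13, adjusted p = 0.79), with limma (adjusted p = 0.4 and 0.44 for pseudocounts of 0.1 and 1) and without the count filter (adjusted p = 0.071).

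Among the ligands of these receptors, 6 of 12 tested were higher in eWAT than in iWAT and 1, Ighm, was lower (median 0.176). The C1q chains, which bind IgG in immune complexes, accounted for 3 of the 6. C1qa rose by 2.37 ± 0.154 (adjusted p = 1.8e-07, edgeR) and C1qb by 2.24 ± 0.149 (adjusted p = 2.1e-07), from 62.4 to 113.0 RPKM in iWAT to 346.5 to 567.9 in eWAT. Both were lower in BAT, C1qb at 5.20 to 12.3 RPKM. Apoe, a ligand of Trem2, was high in both white depots, at 691.7 ± 86.9 RPKM in iWAT and 777.9 ± 129 in eWAT, and did not pass (log2 fold change 0.16 ± 0.126, adjusted p = 0.28). Thbs1, a ligand of CD47, did not pass either (−0.37 ± 0.272, adjusted p = 0.24), but was higher than BAT in iWAT by 4.33 ± 0.422 (adjusted p = 1.6e-07, edgeR). The collagens Col1a1, Col1a2 and Col3a1, ligands of Lair1, did not differ past the threshold between the white depots. Over BAT, 12 of 12 ligands were higher in eWAT (median 2.21) and 11 of 12 in iWAT (median 1.81).

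Of 8 transcription factors of myeloid cells, 5 were higher in eWAT than in iWAT and 2 lower (median 0.59). Sfpi1 (PU.1), described above, had the largest change in all 3 comparisons, 2.01 ± 0.144 for eWAT over iWAT, 5.95 ± 0.177 for eWAT over BAT and 3.91 ± 0.186 for iWAT over BAT (adjusted p = 2.7e-07, 2.7e-13 and 4.1e-11, edgeR). Cebpb rose by 0.39 ± 0.107 (adjusted p = 0.0053), a call lost with all 18 samples in one fit (adjusted p = 0.067) and within lane 2 (adjusted p = 0.14), and Cebpa, which adipocytes express as well, fell by 0.86 on the log2 scale (SE 0.12, adjusted p = 3.7e-05). Cebpa was at 147.7 to 208.6 RPKM in iWAT, 83.8 to 118.0 in eWAT and 101.3 to 144.2 in BAT. Over BAT, Cebpa was lower in eWAT (−0.89 ± 0.104, adjusted p = 1.2e-06) and Cebpb lower in iWAT (−0.65 ± 0.208, adjusted p = 0.01, edgeR). Without TMM scaling both of these signs turned and neither passed (adjusted p = 0.92 and 0.39). Each gene had not passed with TMM scaling in its other comparison with BAT. There, without TMM scaling, Cebpa was higher in iWAT (0.79, adjusted p = 2.4e-05) and Cebpb higher in eWAT (0.67, adjusted p = 0.0059, edgeR). Over BAT, 5 of 8 factors were higher in eWAT (median 3.18) and 6 of 8 in iWAT (median 2.90).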

How the data were processed

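RNA of 18 samples (6 per tissue, grouped by title) had been sequenced by the authors with NEBNext Ultra libraries on an Illumina HiSeq instrument. The submitters' processing notes name cutadapt 1.16, HISAT2 2.1.0 and mm9. The counting program, annotation, strand setting and treatment of reads mapping to several places are not given in the sources used here. The authors deposited, for each transcript row, the read count and the RPKM, which is that count scaled by row length and sample total, with no other normalization. The column NE was not used. For symbols with several rows, the row with the highest mean RPKM was used.

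The 9 receptor genes and the gene lists were chosen with earlier results of these data known. Counts were compared with edgeR 4.0.16 (R 4.3.3; glmQLFit, glmQLFTest, TMM, mean count of at least 10, two-sided, Benjamini-Hochberg over all genes tested), each comparison on its own 12 samples, so folds are on the TMM scale and need not equal RPKM ratios. The SE was derived from the F statistic. Of the listed symbols, 6 were matched through gene ID (for example Syk as Sykb and Spi1 as Sfpi1), and 4 immunoglobulin genes had no row. Correlations used log2(RPKM + 0.1). Transcript identity was computed with blastn 2.17.0. Alternatives were DESeq2 1.42.0, limma 3.58.1 on log2(RPKM + 0.1) or log2(RPKM + 1) at a mean RPKM of at least 0.1, no TMM factors, no count filter beyond 1 read, summed rows, all 18 samples in one fit, lane 1 or 2 alone, lane as a covariate and the mouse number as a replicate block. Leaving out eWAT mice 1 and 3 and GENCODE lengths were added after seeing the data. The edgeR script was tested on simulated data.

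Named list genes were the 2 with the highest mean RPKM of each list and, for each comparison, the one with the largest change past the threshold; the markers and the 5 genes most like Fcer1g by each measure were named too. Trem1, Ighm and the collagens were named after their values were seen. Every pair of samples of a tissue differed by more than counting error (chi-square of at least 15.7 for each degree of freedom). The labels do not say that each sample came from a separate mouse beyond its number, so p-values measure the spread between these samples. Reads were not deduplicated by molecular identifiers, so low counts understate the error. Some of the genes chosen by this rule and a second promoter motif that was searched are not reported here.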

Additional observations from a re-analysis of the deposited data

How the results depend on the processing

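Of 261 fold changes of the receptor genes under the alternatives, 0 reversed and 46 moved by more than the spread between mice, all against BAT except that of Lair1 under limma with a pseudocount of 1 (eWAT over iWAT, 2.19). Without TMM factors the median of all genes tested moved to 0.89 for eWAT over BAT and 0.87 for iWAT over BAT, and that of the receptor genes to 6.17 and 3.96, so all values against BAT depend on the scaling. The share of calls higher in the white depot went from 49.8% to 76.1% (67.6% with limma on log2(RPKM + 0.1), 67.5% with log2(RPKM + 1)) for eWAT over BAT and from 50.6% to 81.8% (74.3% with limma) for iWAT over BAT. Low genes moved most: Lair1 for eWAT over BAT was 3.33 with a pseudocount of 1. For the same scaling, the log2 fold changes that turned to the white depot without TMM were Fcgrt 0.27, Clec2d 0.17, Cebpa 0.0155 and Cebpb 0.67 for eWAT over BAT, and Fcgrt 0.59, Ptpn11 0.74, Clec2d 0.40, Cebpa 0.79 and Cebpb 0.20 for iWAT over BAT. With limma they were, for iWAT over BAT, Fcgrt 0.36, Ptpn11 0.50, Clec2d 0.22, Cebpa 0.55 and Cebpb 0.0333 at log2(RPKM + 0.1), and 0.35, 0.48, 0.21, 0.55 and 0.0301 at log2(RPKM + 1). Of 920 fold changes of named list genes, these 19 reversed and 17 lost the threshold.

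Within lane 1 alone (2 iWAT and 4 eWAT mice), 7300 genes were called for eWAT over iWAT. Other Fc receptors called numbered 5 (limma, pseudocount 0.1) and 6 (no count filter) in place of 3 for eWAT over iWAT, and 6 and 5 (limma, pseudocounts of 0.1 and 1) in place of 3 for iWAT over BAT. Other myeloid lectins called for eWAT over BAT numbered 4 without TMM and 13 without a count filter, in place of 8. The 255 other counts of listed genes stayed within 1.5 times. Leaving out eWAT mice 1 and 3 left 11763 and 16160 genes called over iWAT and BAT.

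Over 14 pairs of same-numbered samples, r of their deviations from the tissue mean ran from −0.23 to 0.37. Only 1 pair, mouse 2 in eWAT and iWAT, was over 0.1. In the 3 comparisons, 2 of 12, 3 of 8 and 1 of 8 samples correlated best with their own number. Whether same-numbered samples came from the same animal cannot be decided from these values. The replicate block called 12836 genes for eWAT over iWAT, 15149 for eWAT over BAT and 12555 for iWAT over BAT, against 13454, 16561 and 14864, and for iWAT over BAT Fcgrt (−0.23, adjusted p = 0.14) and Cebpb (−0.57, adjusted p = 0.12) lost the threshold. Of 81 alternative correlations with the macrophage markers, 19 lost the threshold, 9 on TMM-scaled RPKM, 9 with Cd68 alone and 1 with a pseudocount of 1, of which 4 were in iWAT, 6 in eWAT and 9 in BAT. With 7 to 36 reads per BAT mouse for Lair1, Fcgr1 and Fcgr4, differences between BAT mice in these genes include counting error. How large a part it has was not tested for each gene.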
